A study of Caenorhabditis elegans with 4 samples.

Results

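The inner right arm of *Caenorhabditis elegans* chromosome V is described here by the sites at which CEC-3 was found by chromatin immunoprecipitation and sequencing (ChIP-seq). The sites are the peaks of the authors' whole-series list whose midpoint lies above position 13949353 and at or below 16900000 of chromosome V (WormBase WS220), an interval of 2.95 Mb. It holds 368 of the 14075 whole-series peaks. In the same interval the list of ChIP replicate 1 has 87 of its 3666 peaks and that of ChIP replicate 2 has 86 of its 3867. All samples were young adult hermaphrodites with a germline, of the strain *fem-2(b245)*, cultured at 20 °C, and the growth protocol says that they were collected when gravid. Extract fixed in 1% formaldehyde for 10 min was precipitated with a polyclonal rabbit antibody against T09A5.8. The 4 samples form 2 groups of 2 replicates, T09A5.8 ChIP and input DNA. Both groups carry the *fem-2* mutation, so no wild-type worms enter, whole animals mix germline and soma, and the inputs have no peak list used here.

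T09A5.8 is the gene *cec-3*. Its product is a chromodomain protein reported to bind histone H3 methylated at lysine residue K9, a mark of silent chromatin. In *C. elegans*, which has chromosomes with kinetochores along their whole length and no single centromere, this mark is known to be rich on the arms of the autosomes and poor in their centres. The arms also hold many repeats and families of recently duplicated genes. *cec-3* has been studied for its part in passing chromatin states through the germline, and *fem-2* encodes a phosphatase of the sex determination pathway that is needed to make sperm.

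The members were chosen by position in the whole-series list, so their number and place are a description. The replicate lists were not used by the rule, but they come from the same ChIP samples. Each peak carries a score given by the authors' caller. The scale of the scores is not stated, and replicate scores pile up at 3100, so that stronger peaks are not ranked by them. The read depth behind the lists is unknown. No label says that the replicates were separate cultures, and the spread between them may be technical. Genes and sequences under the peaks are not analysed here, because the gene table at hand belongs to another build.

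CEC-3 sites were not spread evenly along the interval but gathered in a few places. Long runs of the first 2.5 Mb held few peaks, and coverage climbed over the last 0.45 Mb. Of 30 bins counted from the left limit, 29 of 100 kb and a shorter last one, 15 had under 5% of their bases covered in the mean of the replicates. In 5 bins neither replicate had any covered base, and 1 bin had none in the whole-series list either. In 4 bins the mean was over 30%. The 5 most covered bins held 53.7% of all bases that the replicate peaks covered. The replicates ranked the bins alike, with a Spearman's rho of 0.977 over the 30 bins, which share their position and sequence between the lists.

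**Figure D1:**
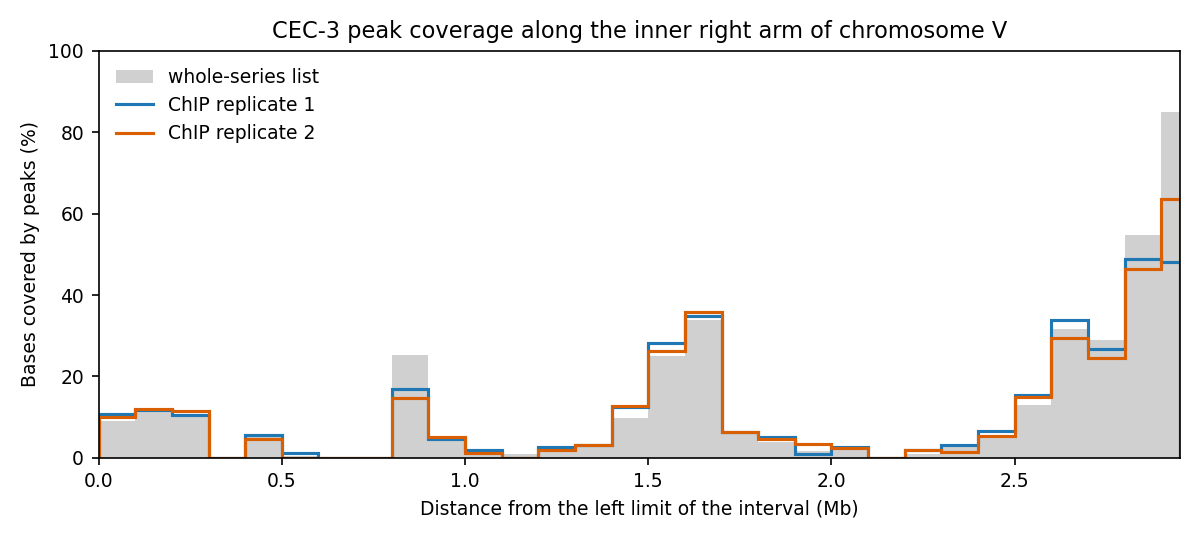
Share of bases covered by CEC-3 peaks (vertical axis, %) in bins of 100 kb (the last is shorter) along the interval (horizontal axis, distance from its left limit in Mb), in the whole-series list (grey) and in each ChIP replicate (lines). Coverage rises near 0.8 Mb, between 1.4 and 1.7 Mb and from 2.5 Mb onward. The last bin reaches 84.9% in the whole-series list, 48.0% in replicate 1 and 63.7% in replicate 2.

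The interval was divided at these changes into 5 stretches, A to E, whose limits were set after the values were seen and which carry no test. Stretch A, from the left limit to 0.3 Mb, had moderate binding. It held 24 members, and its coverage was 11% in replicate 1 and 11.2% in replicate 2. The whole-series list covered 10.2% of it. Stretch B, from 0.3 to 1.4 Mb, was the longest and one of the poorest. It held 43 members in 37.3% of the length, and coverage was 3.29%, 2.80% and 3.94% in the same order. Stretch C, from 1.4 to 1.7 Mb, was a compact cluster. It held 91 members, 24.7% of all in 10.2% of the length, and coverage was 25.1%, 24.9% and 22.9% in the 3 lists. Stretch D, from 1.7 to 2.5 Mb, was again poor, with 45 members and a coverage of 3.31%, 3.21% and 2.99%. Stretch E, from 2.5 Mb to the right limit, held the largest number of the 5 stretches, 165 members or 44.8%. It was covered to 33.1%, 32.7% and 38.0%, and contained 46.6% of the bases covered in the interval in replicate 1 and 47.2% in replicate 2.

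The replicates gave similar total coverage for each stretch. The mean coverage of the replicates was 11.1 ± 0.144% in A, 3.05 ± 0.348% in B and 25.02 ± 0.163% in C. It was 3.26 ± 0.0707% in D and 32.9 ± 0.271% in E (SD, n = 2 throughout). Within E, the last bin was covered to 48.0% in replicate 1 and 63.7% in replicate 2. Each earlier bin of E was more covered in replicate 1. A peak of both replicates met 15 of 24 members in A, 14 of 43 in B, 57 of 91 in C, 19 of 45 in D and 80 of 165 in E, against 53.8% of all whole-series peaks. The most covered stretch, E, lay below that share, as did B and D, while A and C lay above it. These differences were not tested, because neighbouring members are not independent.

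The best-scoring sites lay in every stretch, not only in the dense ones. Of the 15 highest-scoring members found in both replicates, 3 lie in stretch A, 1 in B, 3 in C, 3 in D and 5 in E. Each falls on a single peak in each replicate. In 9 of the 15, both replicate peaks have a score of 3100 or more. Together these 15 hold 23.8% of the bases of all members.

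The highest score of the interval, 87.65, belongs to a site in the moderately bound stretch A, at V 14197472 to 14206364 (8893 bp). The replicates placed its edges close to these, with peaks at 14197330 to 14206580 in replicate 1 and 14197319 to 14206594 in replicate 2. A second strong site of the same stretch lies at 14126053 to 14131468, with a whole-series score of 60.79, and another at 14001998 to 14004943, with 33.81. The first is at 3100 in both replicates, as is the next, whereas the last has 2824 in replicate 1 and 3120 in replicate 2.

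Strong sites were also present in the poor stretches B and D. The single site of stretch B among the 15 lies at 14358727 to 14361694, with a whole-series score of 38.38. Its replicate peaks are wider, at 4661 and 4663 bp against 2968 bp. The strongest of stretch D lies at 15660210 to 15664814, with a score of 67, inside a peak of 6289 bp in replicate 1 and one of 6350 bp in replicate 2. The other 2 of this stretch lie at 16352459 to 16355421 (43.09) and at 16395237 to 16396241 (46.62). The last of these is narrow, 1005 bp, and its replicate scores are only 479 and 537, below the pile-up, although its whole-series score exceeds that of 97.0% of all whole-series peaks.

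The compact stretch C also held strong members. The best lies at 15533199 to 15534033, is 835 bp wide and has a whole-series score of 56.06. Its replicate peaks differ in extent, with 4429 bp in replicate 1 and 2119 bp in replicate 2, and their scores are 1786 and 1196. The other 2 lie at 15560966 to 15563325 (40.33) and at 15584753 to 15586888 (37.28). The median member width was 311 bp in C, 512 bp in A, 440 bp in B, 297 bp in D and 349 bp in E.

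Stretch E held the widest member of the interval. A run of neighbouring members lies between 16733883 and 16787190, among them 16749451 to 16757039 (64.88), 16759571 to 16766684 (63.57) and 16769466 to 16787190 (74.42). The last is the widest member, at 17725 bp, and lies within a peak of 20266 bp in replicate 1 and one of 18317 bp in replicate 2, the widest of each replicate in the interval. The run begins at 16733883 to 16740224, with a score of 33.41, whose replicate peaks run on to 16745947 and 16745924. The remaining site of this stretch among the 15 lies apart at 16531335 to 16538676, with a score of 66.2. It is part of a replicate peak of 12194 bp in replicate 1 and of 11619 bp in replicate 2.

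Of the 367 gaps from one member to the next, 204 were under 500 bp, which is 55.6%, and the median gap was 365 bp. Over all whole-series peaks the share was 54.9% and the median 389 bp, so the members were spaced much like the list taken as a whole. Spacing varied within V, with a median gap of 280 bp in the distal right arm, 596 bp in the centre and 788 bp in the left arm. When gaps of up to 500 bp were bridged, the 368 members made 164 domains, of which 6 were 10 kb or wider. That number was 4 with gaps of up to 200 bp bridged and 9 with gaps of up to 1000 bp. The widest domains lie at 16833151 to 16861743 (28.6 kb, 14 members), 16769466 to 16787190 (17.7 kb, 1 member), 15547428 to 15564392 (17.0 kb, 14 members), 16862300 to 16875941 (13.6 kb, 6 members) and 16733387 to 16745564 (12.2 kb, 9 members). In 5 of the 6 domains of 10 kb or more, both replicates covered over 90% of the bases. Of the 17 domains of 5 to 10 kb, 12 were covered to that degree in both, and of the 94 domains under 1 kb, 7 were. Domains were not joined outside the interval, so these counts cannot be set against the whole list. Among single whole-series peaks elsewhere, the share met by both replicates also rose with width. It was 27.7% under 250 bp and 82.6% from 2000 bp.

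As over the whole genome, the replicate lists had fewer and wider peaks than the whole-series list. A replicate 1 peak of the interval met a median of 2 whole-series peaks and at most 9, and a replicate 2 peak a median of 2 and at most 8. Over the genome the median was also 2 and the maximum 15 in each replicate. The 9 members met by 1 peak lie under the replicate 1 peak at 16733216 to 16745947, of 12732 bp, which replicate 2 matched with a peak at 16733657 to 16745924. The other wide peaks of the interval also recurred. The replicate 1 peak at 15499946 to 15511145 was covered to 95.8% by replicate 2, and that at 16527255 to 16539448 to 95.3%. At 16862371 to 16876268 replicate 1 has 1 peak of 13898 bp where replicate 2 has 2, and these cover 98.3% of it.

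The 3 longest stretches without a member ran from 14615492 to 14755438 (139.9 kb), from 16110817 to 16227944 (117.1 kb) and from 15193100 to 15295981 (102.9 kb). The first touched no replicate peak. Since each replicate peak of the interval met a whole-series peak, none could lie wholly inside such a stretch.

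Members differed widely in strength and size. Whole-series scores ran from 1.35 to 87.65 with a median of 6.11, with quartiles of 3.95 and 11.3. The median over all whole-series peaks is 6.72. Widths ran from 146 to 17725 bp with a median of 347 bp, against 395 bp over all whole-series peaks. Wider members scored higher, with a Spearman's rho of 0.76 over the 368 members, given as a description because a caller's score and the width of a peak come from the same reads. The 223 members under 500 bp were most of the list but a small part of the bound bases: the 42 members of 2000 bp or more held 54.7% of the bases of all members.

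**Figure D2:**
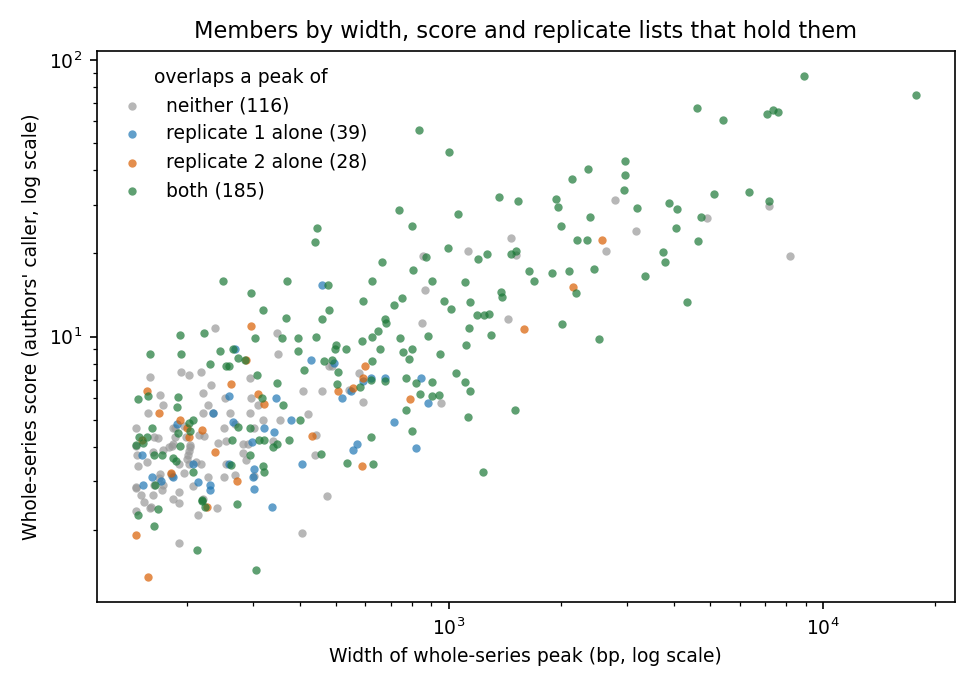
Width (horizontal axis, bp, log scale) and whole-series score (vertical axis, log scale) of the 368 members, each a point coloured by the replicate lists it overlaps. The 185 members in both replicates reach the highest scores and widths, while the 116 in neither lie mostly at the lower left, with a few wide exceptions.

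Many members recurred in the replicates' own lists. A member counted as found where it shared at least 1 bp with a replicate peak. Of the 368, 185 or 50.3% (95% Wilson interval 45.2 to 55.4%, counting error only) overlapped a peak of both replicates, against 53.8% of all whole-series peaks. A further 39 met replicate 1 alone (10.6%, against 8.47% of all), 28 met replicate 2 alone (7.61%, against 10.7%) and 116 met neither (31.5%, interval 27.0 to 36.4%, against 27.0%). The share in both replicates lies close to the value of the whole list, and its interval contains that value. In all, 224 members met a peak of replicate 1 (60.9%, against 62.3%) and 213 a peak of replicate 2 (57.9%, against 64.5%). The last value is the one furthest below that of the whole list, whose 64.5% lies above the upper bound of the Wilson interval, 62.8%. No test of that difference was made, because neighbouring members are not independent.

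The members in both replicates were stronger and wider than the others. Their score was 9.61 and their width 658 bp in the median, and they held 72.5% of the bases of all members. For members that no replicate peak met, the medians were 4.32 and 221 bp, and their part of the bases was 18.7%. The members in replicate 1 alone had medians of 4.51 and 322 bp, those in replicate 2 alone 5.52 and 280 bp. Whole-series peaks elsewhere in the genome had a median score of 10.3 in both replicates and 4.59 in neither. These medians are a description. A wider member shares 1 bp with a replicate peak more easily, and the lists come from the same ChIP samples.

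The rise with score followed that of the other whole-series peaks. With all 14075 peaks ordered by score and cut into 4 groups of equal number, 118 members fell in the lowest group, 83 and 85 in those between, and 82 in the highest. The share in both replicates was 28.0%, 30.1%, 69.4% and 82.9% in that order, and 29.1%, 37.0%, 64.2% and 85.2% for the peaks outside the interval. Each of these 4 outside values lies within the 95% Wilson interval of the members, whose bounds were 20.7 and 36.7% in the lowest group and 73.4 and 89.5% in the highest. By width, 27.4% of the 124 members under 250 bp were in both replicates, as were 81.0% of the 42 members of 2000 bp or more. The same shares elsewhere were 27.7% and 82.6%. From 500 bp to under 1000 bp the members stood at 64.7% (44 of 68, interval 52.8 to 74.998%) and the other peaks at 75.35%, just above the interval's upper bound.

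**Figure D3:**
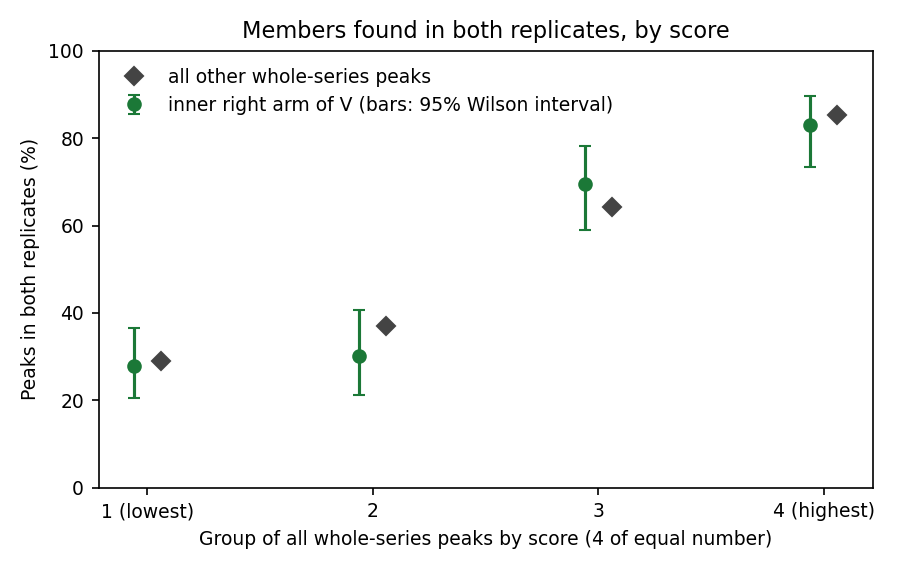
Peaks met by both replicate lists as a share of whole-series peaks (vertical axis, %) in 4 groups of equal number by whole-series score (horizontal axis), for the members (circles, with 95% Wilson intervals for counting error) and for all other whole-series peaks (diamonds). Both sets rise from under 30% in the lowest group to over 80% in the highest, and each diamond lies within the interval of the circle beside it.

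Most peaks of each replicate in the interval recurred in the other. Of the 87 replicate 1 peaks, 74 met a peak of replicate 2, which is 85.1% (interval 76.1 to 91.1%), against 89.0% over the genome. Of the 86 replicate 2 peaks, 78 met a peak of replicate 1, which is 90.7% (82.7 to 95.2%), against 85.3%. Every peak of both replicates in the interval met a whole-series peak, against 99.7% and 99.5% over the genome. The 13 unshared peaks of replicate 1 were weak and narrow, with scores of 63.2 to 178 and widths of 950 to 1601 bp. In the median the shared ones scored 609 and were 3087 bp wide.

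One unshared peak of replicate 2 was an exception. The 8 unshared peaks of that replicate had a median score of 113, but one, at 16891637 to 16898191, is 6555 bp wide and has the pile-up score of 3100. Replicate 1 has no peak there. Members at 16895693 to 16898260 (22.33), 16893444 to 16895589 (15.15) and 16891806 to 16893399 (10.64) lie on it, and make up 3 of the 5 highest-scoring members found in replicate 2 alone. The nearest replicate 1 peak ends 2840 bp before the last of these. The other 2 of the 5 lie at 16787986 to 16788281 (10.96) and 15556807 to 15557094 (8.24), within 500 bp of a replicate 1 peak.

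Members found in replicate 1 alone were weaker. The highest lies at 15192642 to 15193099, with a whole-series score of 15.32, on a replicate 1 peak of 1061 bp and score 107. The nearest replicate 2 peak is 24.7 kb away, in the poor stretch B. The next lie at 16341819 to 16342087 (9.01), 16618173 to 16618602 (8.24), 14443636 to 14444130 (8.05) and 16716170 to 16716788 (7.09). Of these, the pair at 16341819 and 16618173 lie on peaks of 3060 and 3817 bp in replicate 1 and within 435 and 32 bp of a replicate 2 peak.

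Where both replicates called a single peak, their edges were close in the median, but both lay within 500 bp less often than elsewhere. In the interval 64 pairs of peaks were one to one. Their starts differed by a median of 98 bp and their ends by 121 bp, against 84 and 90 bp for the 2551 pairs elsewhere. Both edges lay within 500 bp in 46 of the 64 pairs, or 71.9%, against 81.1% elsewhere. Within chromosome V that share was 80.6% in the distal right arm, 86.6% in the left arm and 87.9% in the centre. Pairs are not replicates, and these differences were not tested.

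Scores of the replicates rose together, but their ratio in the interval was not that of the genome. Spearman's rho of the scores was 0.885 over the 64 pairs and 0.751 over the 46 pairs in which both scores were under 3100. In those 46 pairs the replicate 2 score was the higher one in 23, and the median ratio of the replicate 2 to the replicate 1 score was 0.999. Elsewhere the replicate 2 score was higher in 1435 of 2124 pairs, with a median ratio of 1.25. The ratio was 1.14 in the distal right arm of V, 1.32 in the left arm and 1.43 in the centre. With 1 score per replicate these ratios describe a pair of libraries and carry no test.

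A few strong whole-series sites had no counterpart in either replicate. Of the 47 members with a score of 20 or more, 39 were in both replicates, 1 in one and 7 in neither. Elsewhere 85.9% of such peaks were in both and 9.15% in neither. The highest of the 7 lies at 16706715 to 16709503, with a score of 31.28. It belongs to a domain of 5488 bp, and the nearest replicate peaks are 5018 and 2469 bp from that domain. The others among the 5 highest lie at 16854552 to 16861743 (29.55), 14760751 to 14765643 (26.79), 16842916 to 16846091 (24.07) and 14766544 to 14768008 (22.69).

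These sites came from 3 places. Near 0.8 Mb into the interval, just right of the longest empty stretch, 7 members between 14755439 and 14769745 have scores of 3.16 to 26.79, and no replicate peak meets any of them. The nearest peak is 20958 bp from them in replicate 1 and 21642 bp in replicate 2, a site that all lists hold. At the distal end, the widest domain of the interval, 16833151 to 16861743, was covered to 11.8% by replicate 1 and to 12.7% by replicate 2. It adjoins the domain at 16862300 to 16875941, which they covered to 99.5% and 99.6%. The third place is the domain around 16706715. Of the 70 domains of 1 kb or more, 4 were covered to under 10% in both replicates, and 3 of these 4 lie in the run near 0.8 Mb. The share of such domains outside the interval was not counted.

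**Figure D4:**
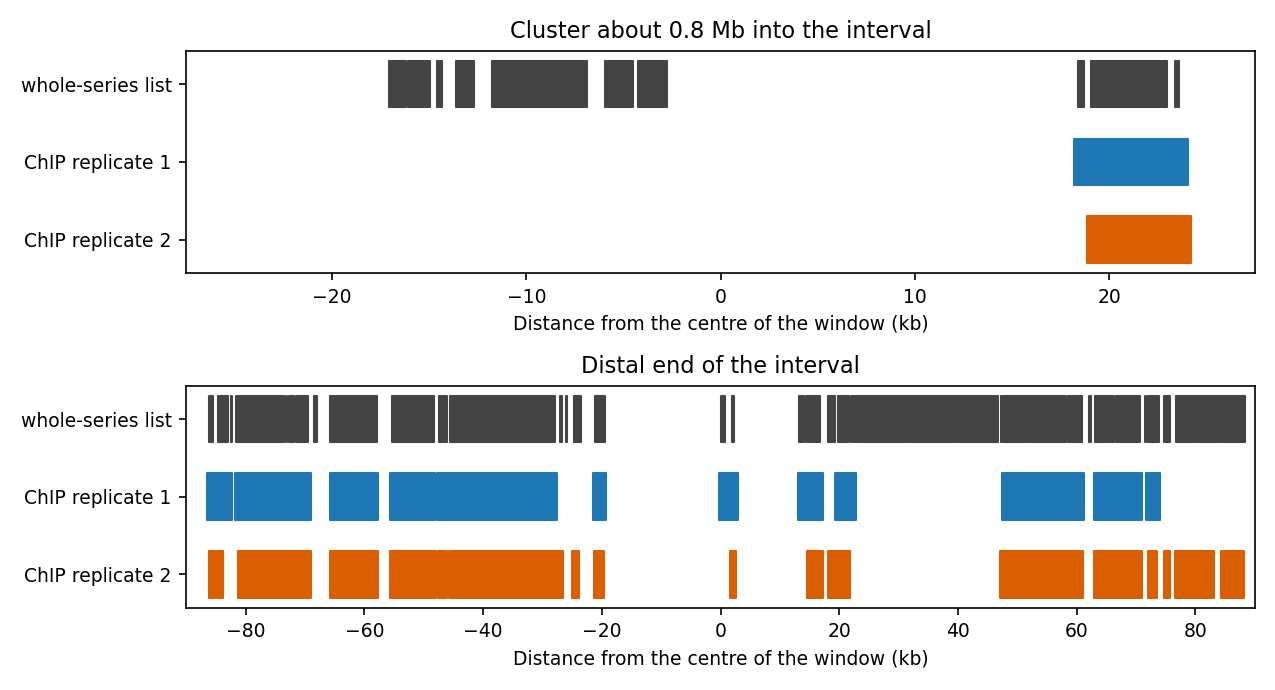
Peaks of the 3 lists as bars along a pair of windows (horizontal axis, distance from the window's centre in kb). In the upper window the whole-series peaks on the left have no replicate peak, while those on the right do. In the lower window, which ends 5 kb past the interval's right limit, a domain 28.6 kb wide right of the centre is nearly empty in both replicates, and replicate 2 alone has the last peak inside the interval.

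The inner right arm was bound far less than the distal right arm that follows it. Mean coverage in the replicates was 10.7 ± 0.192% in the inner right arm, from 10.9% in replicate 1 and 10.6% in replicate 2. It was 40.3 ± 1.599% in the distal right arm (SD, n = 2), 3.75-fold more. The log2 ratio of inner over distal coverage was -1.93 in replicate 1 and -1.89 in replicate 2, with a mean of -1.91 ± 0.0314. The difference exceeded the spread of the replicates. An exact permutation test that flips the sign of each replicate separately (two-sided) gave p = 0.5, the smallest that 2 replicates allow. Any 2 ratios of the same sign give this value, so the test cannot decide the question. Peaks numbered 29.3 ± 0.240 per Mb against 103 ± 4.22 per Mb. The limit between these parts is that of the rule, which was set with the peak lists known.

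Among the arms of V, the inner right arm was nearer to the left arm than to the distal right arm. Coverage in the left arm, the first 6974676 bp, was 7.41 ± 0.245% and density 24.5 ± 1.82 peaks per Mb (SD, n = 2). Inner right arm coverage was 1.45-fold higher, with a log2 ratio of 0.53 ± 0.0735, positive in both replicates (the same exact test, p = 0.5). The parts are unlike, since the left arm was taken whole and the inner right arm lacks the distal part of its arm. By number of peaks the ratio was smaller, with log2 values of 0.34 in replicate 1 and 0.18 in replicate 2. The centre of V had a coverage of 3.44 ± 0.209% and 11.1 ± 0.710 peaks per Mb. Coverage of the inner right arm was also close to the 12.5 ± 0.191% of the whole genome. The poor stretches B and D, at 3.05% and 3.26%, had values near that of the centre, and stretch E, at 32.9%, was nearer to the distal right arm.

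In the replicate lists, single peaks of the inner and the distal right arm had similar medians, and in the whole-series list those of the inner right arm were narrower and scored lower. The median width was 2324 bp in replicate 1 and 2456 bp in replicate 2, against 2387 and 2326 bp in the distal right arm. The median score was 479 and 538, against 474 and 536. Whole-series peaks had a median width of 347 bp in the inner and 464.5 bp in the distal right arm, and a median score of 6.11 against 7.47. The arms differed in spacing, with a median gap between neighbouring peaks of 7054 and 5370 bp in the inner and 1804 and 1510 bp in the distal right arm. Peaks with a score of 3100 or more numbered 15 of 87 in replicate 1 (17.2%, against 12.8% over the genome) and 18 of 86 in replicate 2 (20.9%, against 14.9%). In the distal right arm these shares were 11.2% and 11.7%. Peaks of 10 kb or more held 21.9% and 20.6% of the bases of the interval's peaks, close to the 23.1% and 21.3% over the genome. They held 34.3% and 29.6% in the distal right arm, and 22.4% and 14.7% in the left arm. None of these differences was tested, as the peaks of a list are not replicates.

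**Figure D5:**
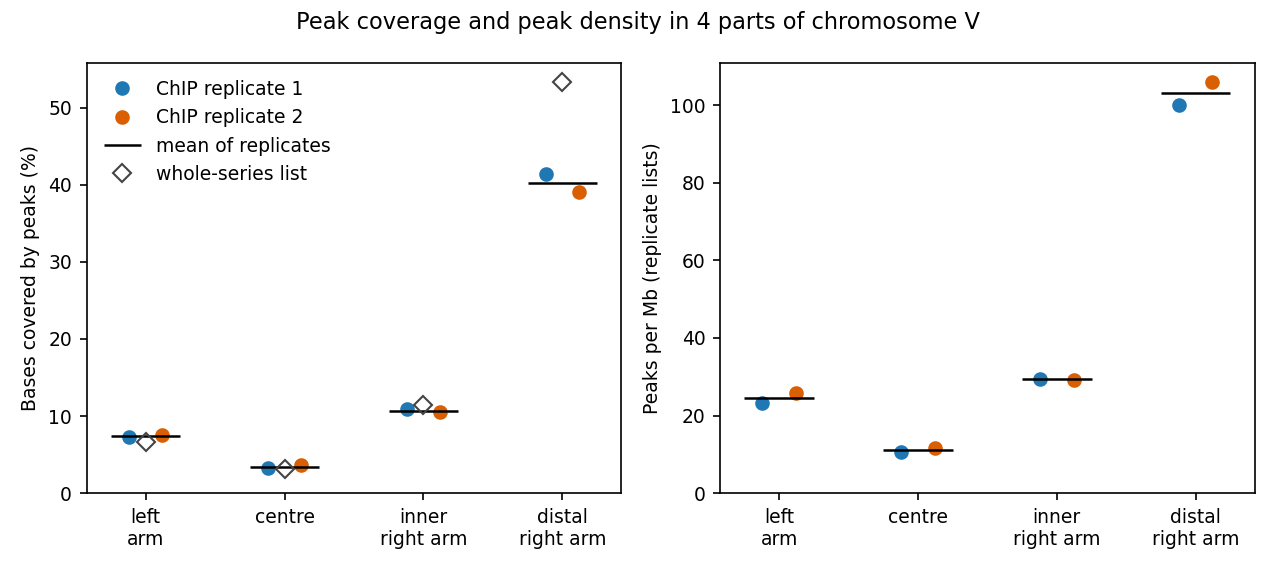
Bases covered by peaks (left, %) and replicate peaks per Mb (right) in the left arm, centre, inner right arm and distal right arm of chromosome V. Points are the ChIP replicates, lines their means and open diamonds the whole-series list. The inner right arm, at 10.9 and 10.6% in the replicates, lies above the left arm and far below the distal right arm.

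The limits of the interval fall in unlike places. At the left limit the nearest peaks are sparse: the last 3 whole-series peaks outside lie 20.7, 63.0 and 63.7 kb away, have scores of 3.05, 3 and 4.04, and are in neither replicate. The first 3 inside lie 9.83 to 11 kb from the limit, have scores of 6.72, 13.45 and 7.85, and are in both. The right limit lies within a domain of the whole-series list. The last 3 members have midpoints 3.02 to 0.848 kb before it and scores of 22.33, 7.41 and 6.21. They are in replicate 2 alone, in neither and in replicate 2 alone. The next peaks outside lie 1.32 to 6.30 kb after it with scores of 21.96, 3.36 and 8.24. These are in replicate 2 alone, in replicate 1 alone and in both. With gaps of up to 500 bp bridged, peaks on both sides form a domain from 16891806 to 16903299, of which 8195 of 11494 bp lie inside. Its members, from 16891806 to 16899306, were covered to 0% by replicate 1 and to 85.9% by replicate 2.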

How the data were processed

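The authors deposited 3 peak lists, which the file headers place on the WormBase build WS220. Reads were aligned with BWA to ce10, per the submitters' processing notes. The source column of the files names MACS for the replicate lists and MACS v2 for the whole-series list. Nothing read here says which control and thresholds were used or how the replicates were combined. The score of each peak is the authors' deposited value, on an unstated scale, and scores were compared only within a list or between the replicate lists.

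Members were placed by midpoint, coverage was counted in bases within the limits, and peaks overlapped when sharing at least 1 bp. The arms of V were taken as the outer of 3 equal parts up to the largest peak end, 20924029. Arm and centre are therefore names of position here, and stretches B and D of the inner right arm had coverage near that of the centre. Values are means ± SD of the 2 ChIP replicates, and 95% Wilson intervals cover counting error only. The members, stretches and tests were chosen with earlier results of these data known. Regions named are the 15 highest-scoring members in both replicates, the 5 highest in neither or in a single replicate, the 5 widest domains, the widest replicate peaks and the 3 longest gaps. The functions were tested on simulated lists. The alternatives were other overlap rules, limits, score thresholds, joins, bins and lists, and leaving out each replicate. Versions were scipy 1.17.1, pandas 2.3.3, numpy 2.4.6, matplotlib 3.10.9 and Python 3.11.15.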

Additional observations from a re-analysis of the deposited data

How the results depend on the processing

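Only the log2 ratios of coverage have a direction, and none of their alternatives turned it. Of the 61 alternatives over all results, 15 moved a value beyond the limits set for it. The log2 ratio of coverage to the distal right arm lay between -2.22 and -1.72 over its 7 alternatives, and that to the left arm between 0.26 and 0.78 over its 5. The share of members in both replicates rose from 50.3 to 61.7% with 250 bp added to either side of each peak, and 57.9 to 60.9% met the replicate that was kept when the other was left out. Moving the interval's end in or out by 0.1 Mb changed the density from 29.3 to 27.4 or 32.0 peaks per Mb and the coverage from 10.7 to 9.79 or 12.2%. Moving its start right or left gave 28.8 or 28.4 peaks per Mb, and a coverage of 10.4% when moved left. Density and coverage fell to 15.6 per Mb and 8.55% for peaks at or above the median score of their list, and were 125 per Mb and 11.4% in the whole-series list. In bins of 50 kb, 8 were over 30% covered in place of 4, as such bins are more numerous. No paired analysis was possible because only the ChIP samples have lists to compare, and the inputs with the same numbers have none. Without read counts, what depth limits is unknown.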
